A study of Homo sapiens with 12 samples.

Results

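The genes described here are those of the collagens, the laminins and the proteins that build, crosslink or sit beside them in the extracellular matrix, measured in 4 forms of the human colorectal carcinoma line HCT116. They were picked by symbol: the COL, LAMA, LAMB, LAMC, LOX and LOXL, P4HA, PLOD, THBS and FBN families, with HSPG2, AGRN, NID1, NID2, SPARC and TNC, outside chromosome 7. These families, and the lists of other matrix genes used below, were chosen with earlier results of these data known. Their shares beside those of all genes are therefore descriptions only. Of 15074 genes in the tables, 42 fitted: 17 collagen genes, 10 laminin genes, 8 enzyme genes, 3 thrombospondins, 2 fibrillins, HSPG2 and AGRN. Another 32 symbols of these families, among them COL4A1, COL4A2, COL3A1, LOX, SPARC, TNC and both nidogens, were not analysed here. LAMB1 and PLOD3, on chromosome 7, were left out by the rule and are given once, at the end.

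The 4 groups had 3 libraries each, from wells harvested 48 h after seeding. Parental HCT116 cells were compared with cells of the same line whose AGO2 gene was knocked out (AGO2_KO), and with knockout cells that carried AGO2 again under an FH (FLAG and HA) tag, as FH-AGO2_WT (FH-WT) or as FH-AGO2_5xA (FH-5xA), in which phosphorylated residues are replaced by alanine. AGO2 is the Argonaute protein that holds a microRNA and is guided by it to mRNAs, and the purpose named by the series is to find transcripts that change between the 2 forms of the protein. Each group is a single line, and neither the place of the edit nor the promoter that drives the tagged protein is stated in the sources at hand. Differences between lines therefore cannot be told apart from those of AGO2 itself, and p-values measure the spread between wells. AGO2 mRNA stood at 205 CPM in parental cells, 161 in the knockout, 270.1 with FH-WT and 267 with FH-5xA. In the authors' deposited table it was lower in knockout than in parental cells by 0.35 ± 0.07 (log2; false discovery rate 1.4e-06).

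The basement membrane, the sheet on which epithelial cells rest, is a network of collagen IV joined to a network of laminins, each laminin a cross of an alpha, a beta and a gamma chain. Perlecan (HSPG2) and agrin (AGRN) tie the networks to each other and to the cell, and fibrillar collagens form the fibres of the tissue beneath. Collagen chains need hydroxylation of proline and lysine inside the cell (P4HA and PLOD enzymes) to fold and to be crosslinked, and lysyl oxidases (LOX and LOXL) make the crosslinks outside it. The miR-29 microRNAs are known for repressing many collagen and other matrix mRNAs.

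Values are levels fitted to each group from the authors' deposited tables, in CPM (counts scaled to library size), which are not library values: the files used give no level per library. The derived standard error (SE) of a fitted log2 level ran from 0.05 to 0.22 over the 42 genes and 4 groups. Fold changes and false discovery rates are the authors' own, and a gene is called where that rate is under 0.05. Over all 42 genes the summed level was 927 CPM in parental cells, 1321 without AGO2, 1127 with FH-WT and 1299 with FH-5xA. No error was derived for the sum, in which abundant genes such as LAMC1, COL12A1 and PLOD1 weigh most. Per kilobase of exon, PLOD1, a lysyl hydroxylase, stood highest in every group, at 27.8, 34.6, 32.5 and 31.6 CPM per kb. P4HA1, LAMC1 and COL12A1 filled the next 3 places in all groups. LAMA1 was lowest in parental cells, at 0.0596 CPM per kb.

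More of these genes were higher than lower without AGO2. In the authors' deposited table of knockout against parental, 22 of the 42 were called higher, where 23.2% of all genes were, and 3 were called lower, where 21.2% were. Their median log2 change was 0.35, beside -0.01 for all genes. With FH-WT in the knockout, 14 genes fell and 1 rose in the authors' deposited table, beside 5.85% of all genes lower and 4.21% higher (median -0.20 beside 0.01). With FH-5xA, 7 fell and 4 rose in the authors' deposited table, beside 6.24% lower and 5.04% higher (median 0.07 beside 0.01). Against parental cells, FH-WT cells had 15 genes higher and 6 lower in the authors' deposited table (18.3% and 16.1% of all genes), and FH-5xA cells had 25 higher and 5 lower (22.9% and 20.9%). The comparisons against knockout share the knockout libraries, and those against parental share the parental ones. Changes of at least 2-fold were fewer, at 9 higher (21.4%) and 1 lower (2.38%) in the knockout in the authors' deposited table, beside 2.93% and 1.71% of all genes.

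**Figure D1:**
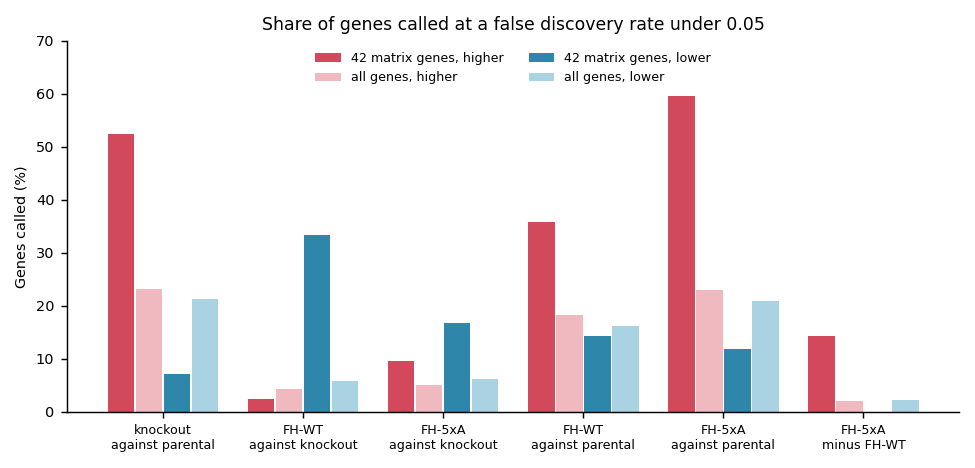
Percent of the 42 matrix genes (dark bars) and of all genes tested (light bars) called higher (red) or lower (blue), in the 5 deposited comparisons and in FH-5xA minus FH-WT. The matrix genes stand above all genes among those higher in the knockout (52.4% beside 23.2%) and among those lower with FH-WT (33.3% beside 5.85%).

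**Figure D2:**
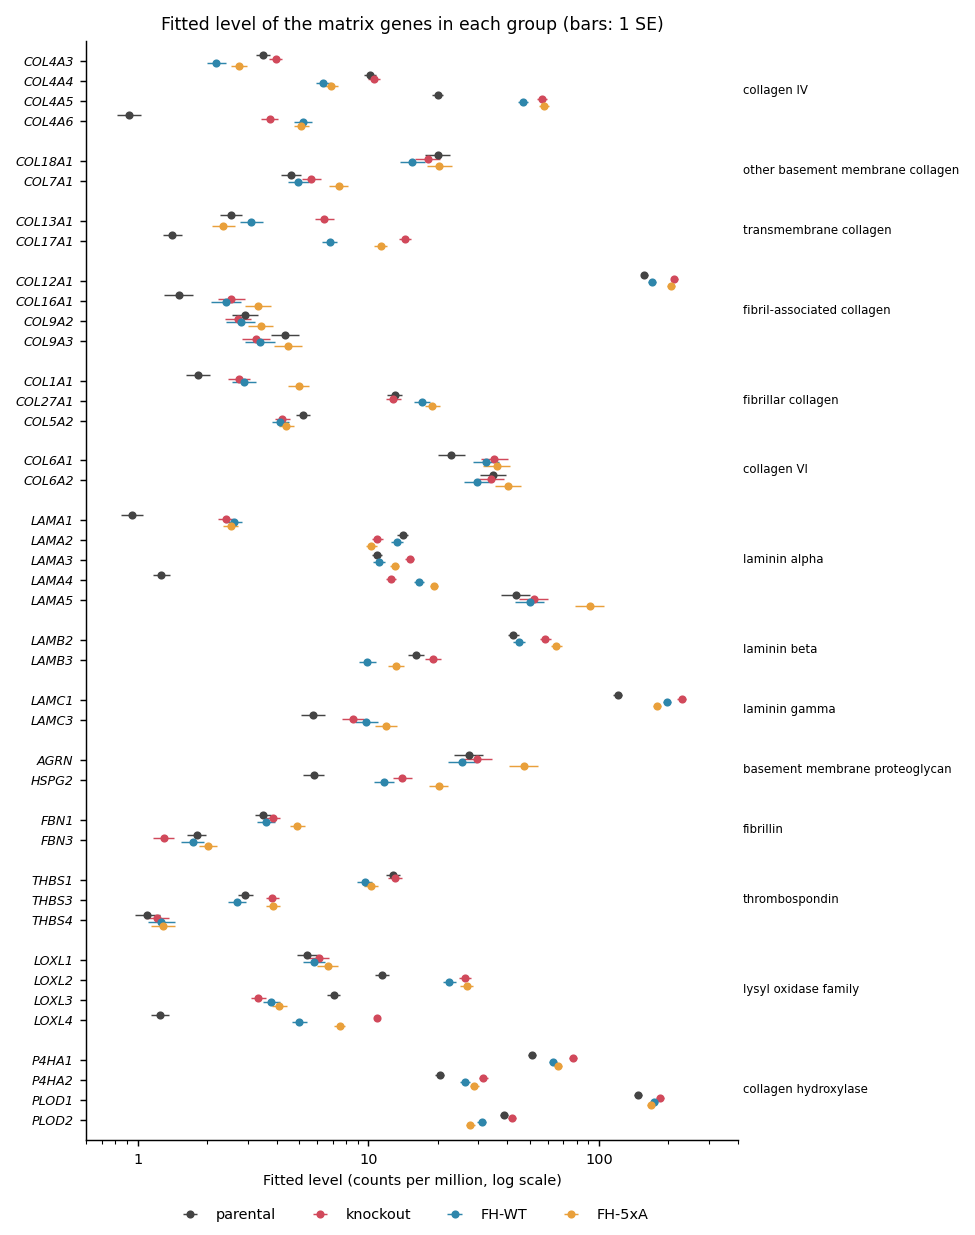
Fitted level of the matrix genes (rows, by class) in parental, knockout, FH-WT and FH-5xA cells, in CPM on a log axis, with bars of 1 derived SE of the log2 level. The parental point of COL17A1, LAMA4, LOXL4 and COL4A6 lies left of the 3 others, between 0.9205 and 1.41 CPM, and that of LOXL3 lies right of them at 7.07 CPM.

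Collagen IV, the network former of the basement membrane, was measured through 4 of its genes, which lie in head-to-head pairs that share the stretch between their starts. COL4A5 and COL4A6 start 380 bases apart on chromosome X, counted to the upstream start of COL4A6, and 1416 bases apart counted to its other start. COL4A3 and COL4A4 start 419 bases apart on chromosome 2. The RefSeq promoter windows of 300 bases, most of it before the start (GRCh38.p14), overlap by 121 bases in the first pair and by 82 in the second. They are printed because both genes of a pair were called in the same direction against parental cells, with FH-WT and with FH-5xA. Against knockout the X pair had opposite signs with FH-WT, at -0.27 for COL4A5 and 0.48 for COL4A6, neither called. Each window is read 5′ to 3′ on the strand of its own gene. Capitals mark CCAAT in the X pair, GGGCGG in COL4A3 and CAGGTG in COL4A4, or their reverse complements.
COL4A5, + strand, chrX:108439588-108439887: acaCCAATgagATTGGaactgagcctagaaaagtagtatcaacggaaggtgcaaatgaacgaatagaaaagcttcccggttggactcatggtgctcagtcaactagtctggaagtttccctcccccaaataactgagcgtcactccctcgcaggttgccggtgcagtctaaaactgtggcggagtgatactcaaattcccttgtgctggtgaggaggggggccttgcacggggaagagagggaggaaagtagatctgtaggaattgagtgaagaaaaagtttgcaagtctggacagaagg
COL4A6, - strand, chrX:108439409-108439708: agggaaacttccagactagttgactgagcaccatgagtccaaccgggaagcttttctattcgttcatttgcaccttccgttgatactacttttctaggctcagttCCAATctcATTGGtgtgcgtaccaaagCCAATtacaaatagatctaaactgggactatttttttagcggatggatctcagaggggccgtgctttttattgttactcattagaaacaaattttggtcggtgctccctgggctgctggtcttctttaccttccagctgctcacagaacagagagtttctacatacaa
COL4A3, + strand, chr2:227164374-227164673: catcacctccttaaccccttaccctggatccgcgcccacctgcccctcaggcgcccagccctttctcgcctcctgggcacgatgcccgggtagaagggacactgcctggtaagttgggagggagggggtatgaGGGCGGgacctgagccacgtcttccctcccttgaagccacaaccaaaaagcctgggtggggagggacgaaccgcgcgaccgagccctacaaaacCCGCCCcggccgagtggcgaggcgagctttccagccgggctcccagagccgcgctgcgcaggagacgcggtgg
COL4A4, - strand, chr2:227164156-227164455: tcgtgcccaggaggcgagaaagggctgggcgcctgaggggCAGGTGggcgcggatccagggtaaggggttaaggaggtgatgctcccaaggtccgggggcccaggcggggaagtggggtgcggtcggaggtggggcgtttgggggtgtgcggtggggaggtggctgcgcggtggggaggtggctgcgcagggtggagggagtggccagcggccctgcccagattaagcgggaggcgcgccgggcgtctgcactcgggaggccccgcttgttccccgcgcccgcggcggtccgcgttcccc
Of 35116 windows of this length in RefSeq, 34.6% held CCAAT, 45.0% GGGCGG and 20.6% CAGGTG on either strand, so each is common. The CCAAT and ATTGG pair near the start of the COL4A5 window is the same DNA as the one in the COL4A6 window. Likewise, the CAGGTG of the COL4A4 window lies in the COL4A3 window too, there as its reverse complement and left in lower case. Windows were found for 33 of the 42 genes.

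The X pair was higher in all 3 engineered lines. COL4A5 (chromosome X, 108439844 to 108697545) stood at 20.02 CPM in parental cells, 56.7 without AGO2, 46.9 with FH-WT and 57.5 with FH-5xA. In the authors' deposited table it rose by 1.5 ± 0.11 (log2) in the knockout, with a false discovery rate of 3.0e-42. COL4A6 (chromosome X, 108155607 to 108439497) stood at 0.9205 CPM in parental cells, 3.74 without AGO2, 5.21 with FH-WT and 5.13 with FH-5xA, and it rose by 2.02 ± 0.21 in the knockout in the authors' deposited table (1.5e-19). Neither was called with FH-WT or FH-5xA against knockout: COL4A5 was at -0.27 ± 0.10 and 0.02 ± 0.10, and COL4A6 at 0.48 ± 0.18 and 0.46 ± 0.17, in the authors' deposited tables. The pair on chromosome 2 was instead lower with FH-WT and FH-5xA. COL4A3 (chromosome 2, 227164565 to 227314792) stood at 3.51 CPM in parental cells, 3.97 without AGO2, 2.19 with FH-WT and 2.75 with FH-5xA, and COL4A4 (chromosome 2, 227002711 to 227164453) at 10.2 CPM in parental cells, 10.6 without AGO2, 6.37 with FH-WT and 6.88 with FH-5xA. In the knockout neither was called, at 0.18 ± 0.14 and 0.05 ± 0.12 in the authors' deposited table. With FH-WT, COL4A3 fell by 0.86 ± 0.17 and COL4A4 by 0.73 ± 0.14 against knockout in the authors' deposited table. With FH-5xA the falls against knockout were 0.53 ± 0.15 and 0.62 ± 0.13 in the authors' deposited table. Both genes were also below parental cells with either protein, by 0.68 ± 0.14 (FH-WT) and 0.57 ± 0.13 (FH-5xA) for COL4A4 in the authors' deposited tables. An antisense transcript, AC097662.1, overlaps exons of COL4A3 and is itself in the tables. The sources at hand do not say whether counting used strand, so reads of the 2 cannot be told apart.

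Both transmembrane collagens rose in the knockout and fell with FH-WT. COL17A1 (chromosome 10, 104031286 to 104085957), the hemidesmosome collagen that spans the membrane of basal epithelial cells, stood at 1.41 CPM in parental cells, 14.4 without AGO2, 6.79 with FH-WT and 11.3 with FH-5xA. It had the largest change of all 42 genes in the knockout, a rise of 3.35 ± 0.16 (log2) with a false discovery rate of 3.0e-90 in the authors' deposited table. With FH-WT it fell by 1.08 ± 0.14 (3.8e-12) in the authors' deposited table, and FH-5xA was at -0.35 ± 0.13 (0.0523). COL17A1 thus stayed above parental cells with both, by 2.26 ± 0.18 and 3.0 ± 0.17 in the authors' deposited tables. COL13A1 (chromosome 10, 69801867 to 69964275), a collagen of cell adhesion sites, stood at 2.53 CPM in parental cells, 6.46 without AGO2, 3.11 with FH-WT and 2.35 with FH-5xA. It rose by 1.35 ± 0.21 in the knockout. It fell against knockout by 1.06 ± 0.22 (FH-WT) and 1.46 ± 0.21 (FH-5xA) in the authors' deposited tables. Against parental cells COL13A1 was not called with either protein, at 0.30 ± 0.23 (FH-WT) and -0.11 ± 0.23 (FH-5xA) in the authors' deposited tables.

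Among the fibrillar collagens, COL1A1 (chromosome 17, 50183289 to 50201632), a chain of the main collagen of connective tissue, was low, at 1.83 CPM in parental cells, 2.76 without AGO2, 2.89 with FH-WT and 4.99 with FH-5xA. It rose in the knockout by 0.59 ± 0.23 (log2; false discovery rate 0.0295) in the authors' deposited table. FH-WT left it at 0.07 ± 0.24, while with FH-5xA it rose further by 0.85 ± 0.22 against knockout in the authors' deposited tables. COL27A1, the highest of this class by mean expression, stood at 13.01 CPM in parental cells, 12.8 without AGO2, 17.1 with FH-WT and 18.97 with FH-5xA. It was at -0.02 ± 0.15 in the knockout in the authors' deposited table, and it was higher than parental with both proteins, by 0.39 ± 0.15 and 0.54 ± 0.15. COL5A2 was not called in any deposited table. The fibril-associated COL12A1, which decorates collagen fibres, was among the 4 highest per kilobase in every group, and stood at 157 CPM in parental cells, 212 without AGO2, 169.8 with FH-WT and 205 with FH-5xA. It rose by 0.43 ± 0.08 in the knockout and fell by 0.32 ± 0.08 with FH-WT in the authors' deposited tables, to 0.11 ± 0.08 against parental. FH-5xA left it at -0.05 ± 0.08 in the authors' deposited table. COL16A1 rose by 0.76 ± 0.29 in the knockout in the authors' deposited table, and COL9A2 and COL9A3 were called nowhere. Of the microfibril-forming collagen VI, COL6A1 rose by 0.62 ± 0.27 in the knockout in the authors' deposited table, just under the threshold at 0.0498. Its partner COL6A2 stood at 34.7 CPM in parental cells, 33.9 without AGO2, 29.5 with FH-WT and 40.4 with FH-5xA and was called in no table. COL7A1, the anchoring fibril collagen, was called only in FH-5xA against parental, at 0.70 ± 0.20 in the authors' deposited table. Its transcript has 64.8% GC, and the tenth of all genes with the most GC had a median of 0.18 in that table. COL18A1, a heparan sulphate collagen of basement membranes, stood at 20.01 CPM in parental cells, 18.1 without AGO2, 15.5 with FH-WT and 20.3 with FH-5xA and was called in none.

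Laminins were mostly higher without AGO2: 7 of 10 were called higher and 1 lower in the authors' deposited table. Over all genes 23.2% were called higher and 21.2% lower. LAMA4 (chromosome 6, 112108760 to 112254939), an alpha chain best known from vessel and muscle basement membranes, was among the 3 lowest of the 42 per kilobase in parental cells, and stood at 1.27 CPM in parental cells, 12.6 without AGO2, 16.5 with FH-WT and 19.3 with FH-5xA. The 3 engineered lines stand together, well away from parental cells. It rose by 3.31 ± 0.14 (log2) in the knockout, with a false discovery rate of 1.2e-117 in the authors' deposited table. It then rose further, by 0.39 ± 0.10 with FH-WT and 0.61 ± 0.09 with FH-5xA against knockout in the authors' deposited tables, the only gene of the 42 called higher with FH-WT. LAMA4 and LOXL4 were the 2 genes called in all 5 tables. LAMA1, the alpha chain of the embryonic basement membrane, stood at 0.947 CPM in parental cells, 2.41 without AGO2, 2.61 with FH-WT and 2.53 with FH-5xA. It rose by 1.35 ± 0.19 in the knockout and was not called with either protein against knockout in the authors' deposited tables. LAMA5, the highest alpha chain by mean expression, stood at 43.6 CPM in parental cells, 52.04 without AGO2, 49.99 with FH-WT and 91.2 with FH-5xA. It was called only in FH-5xA against parental, at 1.07 ± 0.30 in the authors' deposited table, with a transcript of 66.4% GC. Its FH-5xA against knockout value of 0.81 ± 0.29 missed the threshold at 0.0523 in the authors' deposited table. Its exons overlap ADRM1 on the other strand, which is also in the tables. LAMA2, the muscle alpha chain, was lower in knockout by 0.36 ± 0.11 in the authors' deposited table.

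LAMC1, the gamma chain of most laminins and the most abundant laminin, stood at 121 CPM in parental cells, 228 without AGO2, 197 with FH-WT and 179 with FH-5xA. It rose by 0.92 ± 0.09 (log2) in the knockout in the authors' deposited table. It fell by 0.35 ± 0.09 with FH-5xA and was at -0.21 ± 0.09 with FH-WT in the authors' deposited tables. LAMC3 rose by 0.57 ± 0.23 in the knockout in the authors' deposited table and fell with neither protein. LAMB2, the higher per kilobase of the 2 beta chains among the 42 genes, stood at 42.5 CPM in parental cells, 58.5 without AGO2, 45.1 with FH-WT and 65.4 with FH-5xA. The FH-WT level is close to parental and the FH-5xA level is above the knockout. LAMB2 rose by 0.46 ± 0.11 in the knockout, fell by 0.37 ± 0.12 with FH-WT and was at 0.16 ± 0.11 with FH-5xA in the authors' deposited tables.

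LAMA3 and LAMB3 encode an alpha and a beta chain of the laminin beneath epithelia to which hemidesmosomes attach, and both fell with FH-WT. LAMA3 stood at 10.9 CPM in parental cells, 15.1 without AGO2, 11.1 with FH-WT and 12.99 with FH-5xA, and LAMB3 at 16.2 CPM in parental cells, 19 without AGO2, 9.91 with FH-WT and 13.2 with FH-5xA. In the authors' deposited table of FH-WT against knockout the falls were 0.44 ± 0.10 and 0.94 ± 0.17 (log2). In the knockout LAMA3 had risen by 0.46 ± 0.10 in the authors' deposited table, but LAMB3 was at 0.23 ± 0.16. LAMB3 ended below parental cells with FH-WT, by 0.71 ± 0.17 in the authors' deposited table. With FH-5xA, LAMB3 fell by 0.52 ± 0.16 against knockout, and LAMA3 was at -0.22 ± 0.10, uncalled, in the authors' deposited table. Promoter windows of LAMA3 and LAMB3 are printed because, of the 33 genes with a window, they were the 2 that held TGANTCA, the AP-1 type motif, in capitals. It occurred in 7.71% of the 35116 windows. LAMB3 has 3 windows in RefSeq and the motif was in 1 of them.
LAMA3, + strand, chr18:23872770-23873069: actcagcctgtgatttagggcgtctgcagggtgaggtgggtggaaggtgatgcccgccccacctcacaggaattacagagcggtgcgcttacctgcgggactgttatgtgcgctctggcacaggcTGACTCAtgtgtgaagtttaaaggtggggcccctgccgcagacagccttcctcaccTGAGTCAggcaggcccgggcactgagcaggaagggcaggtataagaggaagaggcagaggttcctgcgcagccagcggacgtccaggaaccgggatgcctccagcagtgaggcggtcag
LAMB3, - strand, chr1:209651325-209651624: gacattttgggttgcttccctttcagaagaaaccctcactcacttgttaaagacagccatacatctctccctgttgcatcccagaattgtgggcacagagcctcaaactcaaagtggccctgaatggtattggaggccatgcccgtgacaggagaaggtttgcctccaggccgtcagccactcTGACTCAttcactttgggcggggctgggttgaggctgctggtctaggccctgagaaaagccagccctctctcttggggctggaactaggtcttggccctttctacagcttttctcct
Counted from the start site, the matches begin at -125 and -69 in LAMA3 and at -67 in LAMB3 (GRCh38.p14). A match describes these letters only.

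Of the basement membrane proteoglycans, HSPG2 (chromosome 1, 21822245 to 21937297), perlecan, stood at 5.796 CPM in parental cells, 14.03 without AGO2, 11.7 with FH-WT and 20.2 with FH-5xA. It rose by 1.28 ± 0.20 (log2; false discovery rate 3.7e-09) in the knockout in the authors' deposited table, and its FH-WT against knockout value was -0.26 ± 0.20. AGRN stood at 27.3 CPM in parental cells, 29.7 without AGO2, 25.5 with FH-WT and 47.3 with FH-5xA, and was called only in FH-5xA against parental, at 0.79 ± 0.29 in the authors' deposited table, with a transcript of 67.6% GC. Of the fibrillins, the microfibril proteins, FBN1 stood at 3.497 CPM in parental cells, 3.85 without AGO2, 3.601 with FH-WT and 4.93 with FH-5xA and was called only in FH-5xA against parental, at 0.49 ± 0.16 in the authors' deposited table. FBN3 was lower in the knockout by 0.47 ± 0.20 (0.0456) and rose with FH-5xA by 0.64 ± 0.20 in the authors' deposited tables. THBS1, the thrombospondin released by platelets and many other cells, stood at 12.8 CPM in parental cells, 13.05 without AGO2, 9.64 with FH-WT and 10.3 with FH-5xA. It was at 0.03 ± 0.14 in the knockout and fell by 0.44 ± 0.15 with FH-WT in the authors' deposited tables. Its exons overlap FSIP1 on the other strand, which is also in the tables. THBS3 rose by 0.39 ± 0.15 in the knockout and fell by 0.50 ± 0.16 with FH-WT in the authors' deposited tables. Its exons overlap MTX1 and an antisense transcript on the other strand, both in the tables. THBS4 was called nowhere.

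The lysyl oxidase family moved in both directions. LOXL4 (chromosome 10, 98247690 to 98268250) stood at 1.25 CPM in parental cells, 10.9 without AGO2, 5.02 with FH-WT and 7.53 with FH-5xA. It rose by 3.13 ± 0.13 (log2) in the knockout, with a false discovery rate of 4.7e-116, and fell with FH-WT by 1.12 ± 0.11 and with FH-5xA by 0.54 ± 0.10 against knockout in the authors' deposited tables. It remained above parental cells by 2.01 ± 0.17 and 2.59 ± 0.15 in the authors' deposited tables. LOXL2, the highest of the family, stood at 11.5 CPM in parental cells, 26.3 without AGO2, 22.5 with FH-WT and 26.6 with FH-5xA. It rose by 1.2 ± 0.14 in the knockout and was not called with either protein against knockout in the authors' deposited tables. Against parental cells LOXL2 was higher with both, by 0.97 ± 0.14 (FH-WT) and 1.22 ± 0.14 (FH-5xA) in the authors' deposited tables. LOXL3 went the other way, at 7.07 CPM in parental cells, 3.34 without AGO2, 3.803 with FH-WT and 4.12 with FH-5xA, and was lower in the knockout by 1.08 ± 0.14 (4.9e-13) in the authors' deposited table. LOXL3 stayed lower than parental with both proteins, by 0.89 ± 0.15 and 0.78 ± 0.14 in the authors' deposited tables. Its exons overlap HTRA2 and DOK1 on the other strand, and those of LOXL2 overlap ENTPD4 on its own strand, all in the tables. LOXL1 was called in none.

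Of the 4 hydroxylases that prepare collagen inside the cell, 3 were called higher in the knockout, beside 23.2% of all genes. PLOD1, the highest, stood at 148 CPM in parental cells, 184 without AGO2, 173 with FH-WT and 168 with FH-5xA and rose by 0.31 ± 0.08 (log2) in the knockout in the authors' deposited table. The prolyl hydroxylase subunits P4HA1 and P4HA2 rose by 0.58 ± 0.08 and 0.63 ± 0.09 there in the authors' deposited table. P4HA1 fell by 0.28 ± 0.08 with FH-WT in the authors' deposited table. PLOD2, which hydroxylates the telopeptide lysines used in crosslinks, stood at 38.6 CPM in parental cells, 41.9 without AGO2, 30.97 with FH-WT and 27.7 with FH-5xA. It was at 0.12 ± 0.08 in the knockout and fell with both proteins, by 0.44 ± 0.08 with FH-WT and 0.60 ± 0.08 with FH-5xA against knockout in the authors' deposited tables. Like COL4A3 and COL4A4, it was below parental cells in both lines, by 0.32 ± 0.08 and 0.48 ± 0.08 in the authors' deposited tables.

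Of the 22 genes higher in the knockout, 9 fell with FH-WT, among them COL12A1, COL13A1, COL17A1, LAMA3, LAMB2, LOXL4, P4HA1 and THBS3, in the authors' deposited tables. With FH-5xA 3 fell, COL13A1, LAMC1 and LOXL4. Against parental cells, 14 of the 22 remained called higher with FH-WT and 20 with FH-5xA in the authors' deposited tables. Of the 3 lower in the knockout, FBN3 was called higher with FH-5xA. The 5 genes that fell with FH-WT without a called rise in the knockout were COL4A3, COL4A4, LAMB3, PLOD2 and THBS1, all of them also below parental cells in the authors' deposited table. The same counts over all genes called in the knockout were not computed. The 22 were selected through the same knockout libraries against which the falls were measured, so part of a fall can come from that choice. These counts describe which calls were made, and a call made with one protein and not with the other does not show a difference between them.

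**Figure D3:**
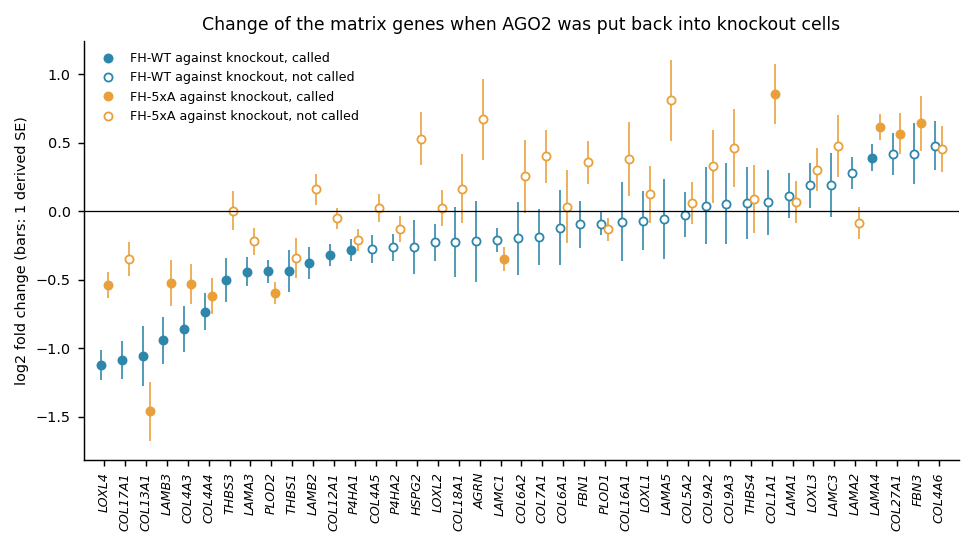
log2 fold change of the matrix genes against knockout for FH-WT (blue) and FH-5xA (orange), ordered by the FH-WT value, with bars of 1 derived SE; filled points are called. The called falls with FH-WT run from -1.12 (LOXL4) to -0.28 (P4HA1), and LAMA4 is the 1 filled blue point above zero.

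Cells with the mutant were therefore set directly against cells with the wild type, by subtracting for each gene its 2 changes from the knockout. It was called for 6 of the 42 genes, all of them higher with FH-5xA, beside 1.98% of all genes higher and 2.13% lower. COL17A1 differed by 0.74 ± 0.15 (log2, 95% interval 0.45 to 1.02, adjusted p = 3.2e-04). LAMB2 differed by 0.53 ± 0.12 (0.31 to 0.76, adjusted p = 0.00135). LOXL4 differed by 0.58 ± 0.13 (0.32 to 0.84, adjusted p = 0.00229). The proteoglycan HSPG2 differed by 0.79 ± 0.20 (0.40 to 1.18, adjusted p = 0.00809) and the fibrillar COL1A1 by 0.79 ± 0.23 (0.34 to 1.24, adjusted p = 0.0244). The smallest was COL12A1, at 0.27 ± 0.08 (0.12 to 0.42, adjusted p = 0.0227). None reached 2-fold. Over the 42 genes the median difference was 0.24, beside 0.01 for all genes, and 35 values were above zero. Another 7 genes had an adjusted p between 0.05 and 0.1: THBS3, AGRN, LAMA5, COL7A1, COL4A5 and FBN1 above zero and LAMA2 below it. The largest value of all, 0.89 ± 0.30 for AGRN, was among them (0.31 to 1.47, adjusted p = 0.0571). COL13A1 was at -0.40 ± 0.23 (-0.86 to 0.06) and LAMA2 at -0.36 ± 0.12 (-0.60 to -0.13), and neither was called.

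GC content moved with this difference, and with the deposited FH-5xA comparisons, over the whole transcriptome. All genes were put into 10 equal groups by GC. In the group with the most (61.5% or more) the median difference was 0.20, and 4.06% of genes were called higher. In the 4 groups with the least the medians lay between -0.05 and -0.02. The 42 genes are GC-rich: their median was 57.1% beside 48.0% for all genes. The 16 matrix genes at 60% GC or more had a median difference of 0.43, with all 16 above zero, beside 0.16 for all genes at that GC. The 26 under 60% had 0.13, with 19 above zero, beside -0.01. Over the 42 genes Pearson's r between GC and the difference was 0.53 and Spearman's rho 0.54, as a description of genes that share the same libraries. For FH-5xA against knockout in the authors' deposited table, r with GC was 0.47 over the 42 genes and 0.35 over all genes, and 0.09 and 0.17 for FH-5xA against parental. For FH-WT against knockout it was 0.14 and 0.10. In the group of genes with the most GC, which holds AGRN (67.6%), LAMA5 (66.4%) and COL7A1 (64.8%), the median change of all genes was 0.24 for FH-5xA against knockout and 0.18 against parental. That group holds 13 of the 42 genes, and HSPG2, LAMC3, COL6A1, COL16A1 and FBN3 in it also had FH-5xA calls. COL1A1 (61.1%) and COL27A1 (61.3%), both called higher with FH-5xA against knockout, lie in the group next below. The median change of all genes there was 0.11 for FH-5xA against knockout and 0.11 against parental. The part of GC in the FH-5xA calls of all these genes was not tested. SEs were also wider at high GC, with a median of 1.48 times that of genes of like expression in the 16 genes and 0.94 times in the 26. LAMA5 had the widest in relative terms, at 3.28 times. With the median of genes of like GC subtracted, 4 of the 6 stayed called, COL17A1, LAMB2, LOXL4 and COL12A1. HSPG2 was then at 0.61 (adjusted p = 0.0627) and COL1A1 at 0.66 (adjusted p = 0.0838), and the median of the 42 was 0.13. The part of GC in the result was not tested beyond this subtraction.

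**Figure D4:**
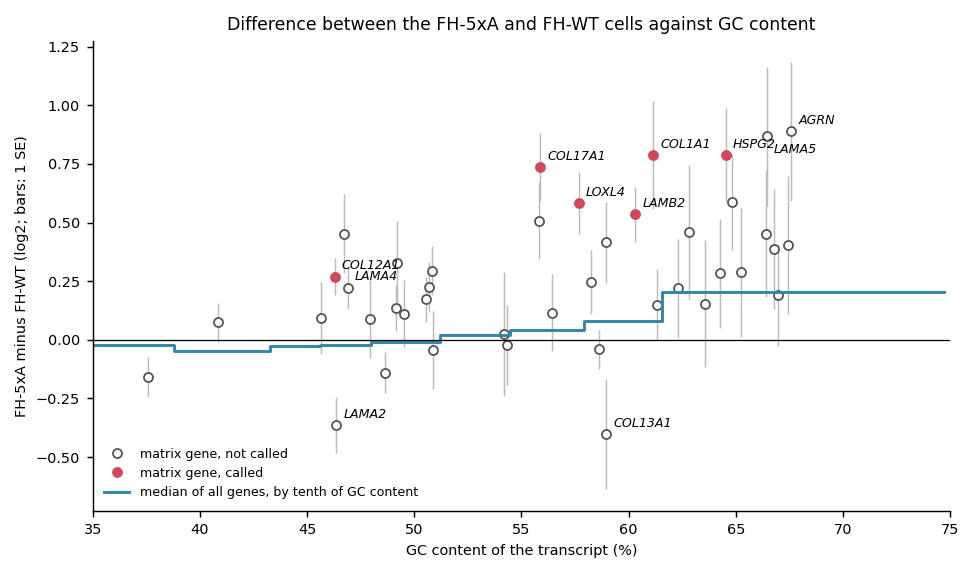
Difference between FH-5xA and FH-WT cells (log2) against the GC content of the transcript (%) for the 42 genes, with bars of 1 SE, red where called; the blue steps are the median of all genes in each of 10 equal groups by GC content. The steps dip from -0.02 at the lowest GC to -0.05 and then rise to 0.20 at the highest. The 6 called genes lie above the steps.

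The miR-29 family is set out because its targets include many matrix genes and because the series is about microRNA-guided silencing. Its 3 mature forms share one seed, bases 2 to 8, in capitals, and were taken from RefSeq.
hsa-miR-29a-3p: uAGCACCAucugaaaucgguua
hsa-miR-29b-3p: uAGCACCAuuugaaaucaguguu
hsa-miR-29c-3p: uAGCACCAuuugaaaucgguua
The match to this seed in DNA letters is TGGTGCT. It was found in the 3′ UTR of 17 of the 42 genes (40.5%), beside 1797 of 11671 genes with a 3′ UTR (15.4%). Genes with the site have longer 3′ UTRs, with a median of 2752 bases over all genes beside 959 without, and of 1393 and 695 in the 42, so length moves with these shares. Matches are printed, in capitals, for both collagen IV pairs and for genes that did and did not rise, on the strand of the mRNA (GRCh38, GENCODE 29).
COL4A5, + strand, chrX:108696469-108696498: tactgctgccgtcaaTGGTGCTactatata
COL4A6, - strand, chrX:108156764-108156793: ctgtttctgtcaagcTGGTGCTactgtttg
COL4A3, + strand, chr2:227314154-227314183: gtaaaagccctagacTGGTGCTaatgtcaa
COL4A4, - strand, chr2:227007229-227007258: tgctaagagatgtcaTGGTGCTcattttgg
LOXL4, - strand, chr10:98248547-98248576: agtcccccatctaagTGGTGCTttgcaaat
HSPG2, - strand, chr1:21822468-21822497: acggacggatgccgcTGGTGCTcaggaaga
LAMC1, + strand, chr1:183144238-183144267: tattatctgacacacTGGTGCTattaatta
COL1A1, - strand, chr17:50184565-50184594: tggggagggaatcacTGGTGCTatagaaat
COL5A2, - strand, chr2:189032866-189032895: tttttcctttaatgaTGGTGCTaaaattct
The LOXL4 site begins 360 bases into a 3′ UTR of 1231 bases, that of COL4A5 106 bases into 1167, and that of COL4A4 82 bases into 4614. COL4A4 held 3 matches, the most of the 42, and COL4A3 2.

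Genes with the match were not uniform. In the authors' deposited table of knockout against parental, 9 of the 17 were called higher and 1 lower (LAMA2), with a median log2 change of 0.56, beside 13 higher and 2 lower of the 25 without it, median 0.31. Over all genes the medians were 0.08 with the match (621 of 1797 higher and 346 lower) and -0.01 without. COL4A5, COL4A6, LOXL4, HSPG2, LAMC1 and COL1A1 carry the match and rose. COL4A3, COL4A4, COL5A2, COL6A2, COL7A1, COL27A1 and FBN1 carry it and were not called. COL17A1, LAMA4 and COL13A1, with 3 of the largest rises, have none in the 3′ UTR read. With FH-WT 4 of the 17 fell and with FH-5xA 4 fell and 2 rose in the authors' deposited tables, beside 10 and 3 falls and 1 and 2 rises of the 25. Over all genes, 188 of the 1797 with the match fell and 46 rose with FH-WT, and 197 fell and 91 rose with FH-5xA. Of the 9874 without it, 638 fell and 434 rose with FH-WT, and 682 fell and 457 rose with FH-5xA. FH-5xA minus FH-WT was called in 3 of the 17 and 3 of the 25, with medians of 0.29 and 0.22. Over all genes it was called higher in 47 and lower in 31 of the 1797, and higher in 195 and lower in 218 of the 9874. Matches to other seeds were fewer, at 5 of the 42 genes for let-7, 4 for miR-200bc, 3 for miR-18 and 1, THBS1, for miR-19. In that order these are 11.9%, 9.52%, 7.14% and 2.38%, beside 10.3%, 18.1%, 9.30% and 14.4% of all genes with a 3′ UTR. Levels of the microRNAs themselves were not analysed here.

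**Figure D5:**
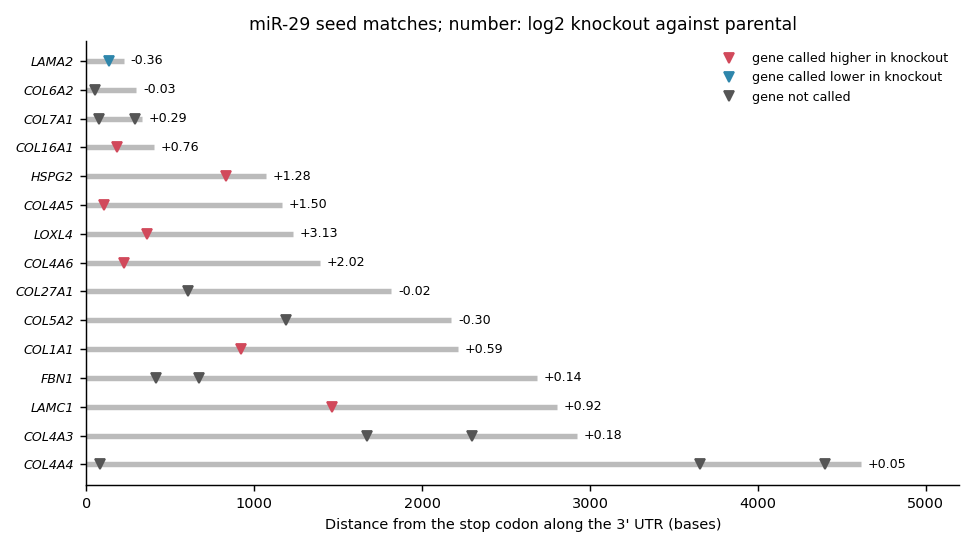
Positions of miR-29 seed matches (triangles) along the 3′ UTRs (grey bars, bases from the stop codon) of 15 matrix genes, with the log2 change of each gene in knockout against parental beside its bar; LOXL2, with 1 match, is among those not drawn. Red marks genes called higher, blue called lower and dark grey not called: genes with 2 or 3 matches (COL4A3, COL4A4, FBN1, COL7A1) are among those not called.

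Other matrix genes were read from 5 lists of 122 symbols, of which 59 were measured. In the authors' deposited table of knockout against parental 26 were called higher and 6 lower (44.1% and 10.2%, beside 23.2% and 21.2% of all genes), with a median of 0.24. With FH-WT 2 rose and 7 fell (3.39% and 11.9%, beside 4.21% and 5.85% of all genes) in the authors' deposited table. With FH-5xA 5 rose and 11 fell (8.47% and 18.6%, beside 5.04% and 6.24%) in the authors' deposited table. By list, the knockout counts below stand beside the same 23.2% of all genes higher and 21.2% lower. Of 17 collagen processing genes 6 rose (35.3%) and 3 fell (17.6%), shares near those of all genes. SEC24D and SEC23A, coat proteins that carry collagen out of the endoplasmic reticulum, rose by 0.91 ± 0.10 and 0.53 ± 0.08 in the authors' deposited table. CRTAP and P3H1, partners in prolyl hydroxylation, rose by 0.57 ± 0.11 and 0.45 ± 0.08 in the authors' deposited table. The collagen chaperone SERPINH1 was at 0.21 ± 0.11 and P4HB, the partner of the P4HA subunits, at -0.03 ± 0.09 in the authors' deposited table. SERPINH1 differed between FH-5xA and FH-WT by -0.44 ± 0.11 (adjusted p = 0.00686). It was 1 of 5 called among the 59 in this difference, 2 higher (3.39%, beside 1.98% of all genes) and 3 lower (5.08%, beside 2.13%), with a median of -0.03. The 4 others, named after their values were seen, were FKBP10, a collagen-folding isomerase, at 0.44 ± 0.13 (adjusted p = 0.0226), LTBP3 at 0.86 ± 0.23, ECM1 at -0.79 ± 0.20 and TIMP1 at -0.38 ± 0.12. ECM1 was low in these cells, at 2.39 CPM with FH-WT and 1.38 with FH-5xA.

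Of 16 glycoproteins, 8 rose (50%) and 1 fell (6.25%) in the knockout. ECM1, a secreted matrix glycoprotein, rose by 1.47 ± 0.25, the phosphoprotein SPP1 by 0.91 ± 0.22 and CCN1 by 0.66 ± 0.14, while CCN3 fell by 0.65 ± 0.16 in the authors' deposited table. ECM1 was low, at 0.557 CPM in parental cells and 1.54 without AGO2. Fibronectin (FN1) stood at 12.7 CPM in parental cells, 16.9 without AGO2, 12.1 with FH-WT and 9.98 with FH-5xA. It rose by 0.42 ± 0.13 in the knockout and fell by 0.48 ± 0.13 (FH-WT) and 0.76 ± 0.13 with FH-5xA in the authors' deposited tables. Of 8 proteoglycans 3 rose (37.5%) and 1 fell (12.5%), led by versican (VCAN) at 1.18 ± 0.08 in the authors' deposited table, with GPC4 at 0.87 ± 0.16, SPOCK2 at 0.76 ± 0.31 and SDC1 at -0.40 ± 0.15. SPOCK2 was low, at 0.594 CPM in parental cells and 1.004 without AGO2. Versican fell by 0.83 ± 0.08 with FH-WT and 0.99 ± 0.08 with FH-5xA against knockout in the authors' deposited tables. Of 12 proteases and inhibitors 7 rose (58.3%). The plasminogen activator PLAU, a secreted protease, rose by 1.39 ± 0.09, its receptor PLAUR by 1.11 ± 0.11 and TIMP2 by 0.73 ± 0.12 in the authors' deposited table. Neither PLAU nor PLAUR was called with either protein against knockout in the authors' deposited tables. Of 6 receptors 2 rose (33.3%) and 1 fell (16.7%): BCAM, a laminin receptor, rose by 0.60 ± 0.22 and CD47, a thrombospondin receptor, by 0.29 ± 0.09, and RPSA fell by 0.19 ± 0.07 in the authors' deposited table.

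Several measurements bear on how these values can be read. The fibroblast markers PDGFRA, PDGFRB, DCN, LUM, COL1A2 and COL3A1 were not among the genes tested, and 2 of 12 were (ACTA2 and S100A4), with a summed level between 14.1 and 25.4 CPM over the groups. Of 10 endothelial markers 2 were tested (ESAM and EGFL7), between 28.7 and 34.0 CPM. Of 13 colorectal epithelial markers 8 were tested, summing to 2890 CPM in parental cells, 2376 without AGO2, 2071 with FH-WT and 2239 with FH-5xA. Of the 8, 3 fell (37.5%, beside 21.2% of all genes) in the knockout in the authors' deposited table, CDH1 by 0.97 ± 0.08. The fibroblast markers went opposite ways there, ACTA2 rising by 1.41 ± 0.17 while S100A4 fell by 0.46 ± 0.11 in the authors' deposited table. The part of these changes in those of the matrix genes was not tested. Exons of 18 of the 42 genes overlap a gene on the other strand, in 8 cases one that is also in the tables. In bulk RNA, fewer cells that make a transcript and less of it per cell cannot be told apart. The 2 genes on chromosome 7 were both higher in the knockout in the authors' deposited table: LAMB1 by 1.47 ± 0.07 and PLOD3 by 0.71 ± 0.11. Neither was called with FH-WT or FH-5xA against knockout in the authors' deposited tables. With them the count of genes higher in the knockout was 24 of 44 (54.5%, beside 23.2% of all genes).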

How the data were processed

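RNA from 12 HCT116 libraries, 4 groups of 3, was analysed through 5 tables of the authors' own comparisons. Each gene's deposited values, per the file headers, are a log2 fold change, a mean log2 CPM, the score of a likelihood ratio test, its p-value and its false discovery rate. Per the submitters' processing notes, the tools were edgeR 3.8.6, featureCounts 1.4.6, Cufflinks 2.2.1 and TopHat2 2.0.12, on hg38/GRCh38; for their settings, the annotation and strand nothing is stated. Counts per library were not analysed here, so depth is unknown, and the deposited edgeR tests replaced tests on counts.

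From these values an SE was derived as the absolute log2 fold change divided by the square root of the score, and group levels were fitted so that their mean over 4 groups equals the deposited mean CPM. Group variances solved from the 5 squared SEs gave the variance of FH-5xA minus FH-WT. The difference was tested by chi-square (1 degree of freedom) and adjusted by the Benjamini-Hochberg method over 15072 genes. The derivation was also run on simulated counts, with an assumed depth and a spread between libraries known in advance. The outcome of that run is not given here. Fold changes closed across tables to within 4.62e-14. Positions, exon lengths, GC content and 3′ UTRs came from GENCODE 29, and promoter windows and microRNAs from RefSeq. Python 3.11.15, numpy 2.4.6, pandas 2.3.3 and scipy 1.17.1 were used.

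Named with values were LAMA4, COL17A1, LOXL4, COL13A1 and COL1A1, the 10 largest called changes per comparison among genes of at least 1 CPM, each gene called in FH-5xA minus FH-WT, the most abundant gene of each class, up to 4 called genes per pathway list, and SERPINH1, P4HB and FN1; other members were named to account for the 42; 1 of the 42 and 1 pathway gene enter the counts and are not reported here by name. The members and lists were chosen with earlier results of these data known. Alternatives were stricter thresholds, an expression minimum, leaving out chromosome 7, centring on the median, 2 other derivations of the difference, a shorter seed and, chosen after seeing the data, subtraction of the GC trend.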

Additional observations from a re-analysis of the deposited data

Results flagged for a closer look

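In 6 genes the FH-5xA cells differed from the FH-WT cells by the test of the difference itself, each with more mRNA in FH-5xA cells (log2 difference): COL12A1 by 0.27, COL17A1 by 0.74, COL1A1 by 0.79, HSPG2 by 0.79, LAMB2 by 0.53 and LOXL4 by 0.58. Each group is a single line, so a difference between lines cannot be told apart from one between the proteins. The GC content of the 6 genes ran from 46.3% (COL12A1) to 64.5% (HSPG2). With the GC trend subtracted, HSPG2 and COL1A1 were no longer called.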

How the results depend on the processing

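No paired analysis was possible because the tables hold no values per library; for the same reason leaving out each replicate and DESeq2, both planned, were not run. The largest differences came from requiring a change of at least 2-fold, which left 10 genes called in knockout against parental (25 without it), 3 in FH-WT against knockout (15), 1 in FH-5xA against knockout (11), 7 in FH-WT against parental (21), 12 in FH-5xA against parental (30) and 0 in FH-5xA minus FH-WT (6 at adjusted p under 0.05, and 8 with the mean of 4 squared SEs as variance). The pathway lists then had 6, 0, 0, 5, 6 and 0 called, in the same order (32, 9, 16, 25, 29 and 5 without it). At a false discovery rate under 0.01 the lists had 5 called for FH-WT against knockout and 2 for FH-5xA minus FH-WT. With a 6-base seed match the count of matrix genes was 14 for let-7, 10 for miR-19, 13 for miR-18 and 15 for miR-200bc, and 23 for miR-29. In that order these are 33.3%, 23.8%, 31.0%, 35.7% and 54.8%, beside 25.1%, 30.1%, 34.9%, 38.6% and 31.6% of all genes with a 3′ UTR. All other counts, with an expression minimum, without chromosome 7, centred, by the other derivations or with the GC trend subtracted, were within 1.5 times the values reported. No named value changed sign under these settings, and 66 of 74 kept their call with the GC trend subtracted. Precision is limited by the SE of GC-rich genes, up to 0.30 for AGRN and LAMA5.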
